A study of Mus musculus with 6 samples.

Results

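The miR-30 family was examined in brown and subcutaneous adipose tissue of mice through 9 mature arms, chosen by name from the 1251 miRNA arms of the deposited table. The 9 are the 5p arms of miR-30a, miR-30b, miR-30c, miR-30d and miR-30e and the 3p arms miR-30a-3p, miR-30e-3p, miR-30c-1-3p and miR-30c-2-3p. The BF-EPA libraries were made from interscapular brown fat, the heat-producing depot, and the SUB-EPA libraries from inguinal subcutaneous fat, a white depot. Each group holds 3 libraries, numbered 3, 4 and 5 for BF-EPA and 1, 3 and 8 for SUB-EPA. All came from C57BL/6J mice, an inbred strain, aged 5 to 6 weeks when feeding began, which ate a high fat diet for 11 weeks, in which fat supplied 45%, carbohydrate 35% and protein 20% of the energy. The diet of both groups was supplemented with 6.75% eicosapentaenoic acid (EPA), an omega-3 fatty acid, and the mice were fasted for 4 hours before the tissues were taken. Groups fed without EPA were not analysed here, so the comparison is between tissues and not between diets. The libraries represent whole tissue, in which fewer cells of a type and less RNA per cell cannot be told apart.

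A miRNA hairpin is cut into a 5p and a 3p arm, of which the arm loaded into an Argonaute protein guides the repression of messenger RNAs. Target choice rests mainly on the seed, bases 2 to 8 of the arm, and the miR-30 5p arms share a seed, so their target sets overlap widely. In adipose tissue the family is known for promoting the differentiation of fat cells, and miR-30b and miR-30c for promoting thermogenesis in mouse brown and beige fat by repressing Nrip1 (RIP140), a corepressor of thermogenic genes. The 3p arms carry other seeds.

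The mature sequences show which arms can act on the same targets and which are hard to tell apart by sequencing. RefSeq (GRCm38.p6) held a mature sequence for 7 of the 9 members. They are printed 5′ to 3′ with the seed in capitals, grouped by shared seed, and miR-30b-5p and miR-30d-5p are given by name.
miR-30a-5p: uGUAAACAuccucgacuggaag
miR-30c-5p: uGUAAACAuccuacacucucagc
miR-30e-5p: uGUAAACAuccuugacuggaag
miR-30a-3p: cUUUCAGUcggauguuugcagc
miR-30e-3p: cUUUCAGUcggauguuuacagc
miR-30c-1-3p: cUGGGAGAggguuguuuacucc
miR-30c-2-3p: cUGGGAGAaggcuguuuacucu

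The 3 printed 5p arms share their first 12 bases. Counted from 1 at the 5′ end, miR-30a-5p and miR-30e-5p differ by 1 base (C13U), and so do miR-30a-3p and miR-30e-3p (G18A). The 3p arms of miR-30c-2 and miR-30c-1 differ at 3 positions (A9G, C12U and U22C). Whether mismatches were allowed in read mapping is not given in the sources used here, so values of arms that differ by 1 base are uncertain where reads could be assigned to either.

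The hairpins lie in 3 pairs in the genome, and their positions follow the GENCODE M21 annotation of mouse assembly GRCm38 (mm10). Mir30a (chromosome 1, 23272269 to 23272339, plus strand) lies 19.4 kb from Mir30c-2 (23291701 to 23291784), which overlaps an exon of the long noncoding RNA Gm27028. Mir30e (chromosome 4, 120772606 to 120772697, minus strand) and Mir30c-1 (120769534 to 120769622) both lie in introns of Nfyc, which encodes a subunit of the transcription factor NF-Y. Mir30d (chromosome 15, 68341208 to 68341289, minus strand) overlaps an exon of the long noncoding RNA Gm20732, and Mir30b (68337415 to 68337510) lies 3.7 kb from it. MiR-30c-5p is identical in its hairpins on chromosomes 1 and 4, so its level is the sum of both. The hairpins whose arms are compared are printed with the mature arms in capitals, the 5p arm first, to show where each measured arm lies.
Mir30a: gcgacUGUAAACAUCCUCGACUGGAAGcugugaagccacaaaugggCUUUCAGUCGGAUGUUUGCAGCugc
Mir30c-2: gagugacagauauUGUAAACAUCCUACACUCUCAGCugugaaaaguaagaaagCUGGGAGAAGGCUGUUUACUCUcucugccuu
Mir30e: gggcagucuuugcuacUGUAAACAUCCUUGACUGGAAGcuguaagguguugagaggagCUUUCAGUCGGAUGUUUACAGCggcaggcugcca
Mir30c-1: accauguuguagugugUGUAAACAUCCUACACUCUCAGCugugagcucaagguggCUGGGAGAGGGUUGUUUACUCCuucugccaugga

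The deposited values are normalized log2 abundances with a floor at 3.32 (10 on the linear scale), and the linear totals of the libraries were 2416478 to 2417746, so they carry no depth. At 64 of the 100 highest ranks the value was equal in all 6 libraries (within 1e-06), and at the others it differed by at most 0.14, so a level largely states an arm's rank in its library. Of the 269 miRNAs tested, 33.5% were higher and 35.7% lower in BF-EPA (limma, Benjamini-Hochberg adjusted p under 0.05), with a median log2 difference of -0.45. Markers of other cells varied between libraries. The summed linear level of 6 skeletal muscle miRNAs was 1324 to 151269 in BF-EPA and 1757 to 123144 in SUB-EPA, led by miR-133a-3p in BF-EPA-4 (17.20 on the log2 scale) and SUB-EPA-3 (16.90). Of these, 3 were tested and none passed, and miR-1a-3p, miR-208b-3p and miR-499-5p were at the floor in all 6 libraries. The 6 stromal miRNAs summed to 25587 to 30885 in BF-EPA and 90889 to 114249 in SUB-EPA, without overlap, and 5 of 6 tested were lower in BF-EPA. The 7 epithelial miRNAs summed to 337 to 457 in BF-EPA and 369 to 39581 in SUB-EPA, the highest being SUB-EPA-1, and none of the 5 tested passed. The 2 endothelial miRNAs summed to 3244 to 3823 in BF-EPA and 9921 to 12612 in SUB-EPA, and both were lower in BF-EPA. For 6 leukocyte miRNAs the sums were 33422 to 45480 in BF-EPA and 15111 to 20256 in SUB-EPA. Of 4 tested, 1 was higher, miR-150-5p, which led the sums (15.02 to 15.47 in BF-EPA on the log2 scale). The other 3 were lower in BF-EPA, miR-223-3p (log2 difference -5.51), miR-146a-5p (-3.10) and miR-142-5p (-2.08). The sums of 3 red cell miRNAs were 209746 to 210033 in BF-EPA and 19522 to 36299 in SUB-EPA. Of 2 tested, 1 was higher, miR-486-5p, which led the sums (17.68 in each BF-EPA library), and 1 lower, miR-451a (-1.49). The part of these markers in the differences below was not tested, except that results were recomputed without BF-EPA-4 and SUB-EPA-3, where miR-133a-3p was highest. Without them each of the 6 calls described next held.

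The dominant miR-30 arm differed between the tissues. MiR-30d-5p led the family in BF-EPA and miR-30a-5p led it in SUB-EPA, while the sum of the 5 arms, which share a seed, lay in overlapping ranges. Of the 9 arms, all of which were tested, 4 were higher in BF-EPA (miR-30c-5p, miR-30d-5p, miR-30e-3p and miR-30c-1-3p) and 2 were lower (miR-30a-5p and miR-30b-5p). The other 3 (miR-30e-5p, miR-30a-3p and miR-30c-2-3p) did not pass the test. The groups did not overlap for 6 of the 9, where 74% of all tested miRNAs had groups without overlap. The numbers of calls are thus near the background shares, and what follows describes which arms moved in which direction. The median difference of the 9 arms was 0.17.

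**Figure D1:**
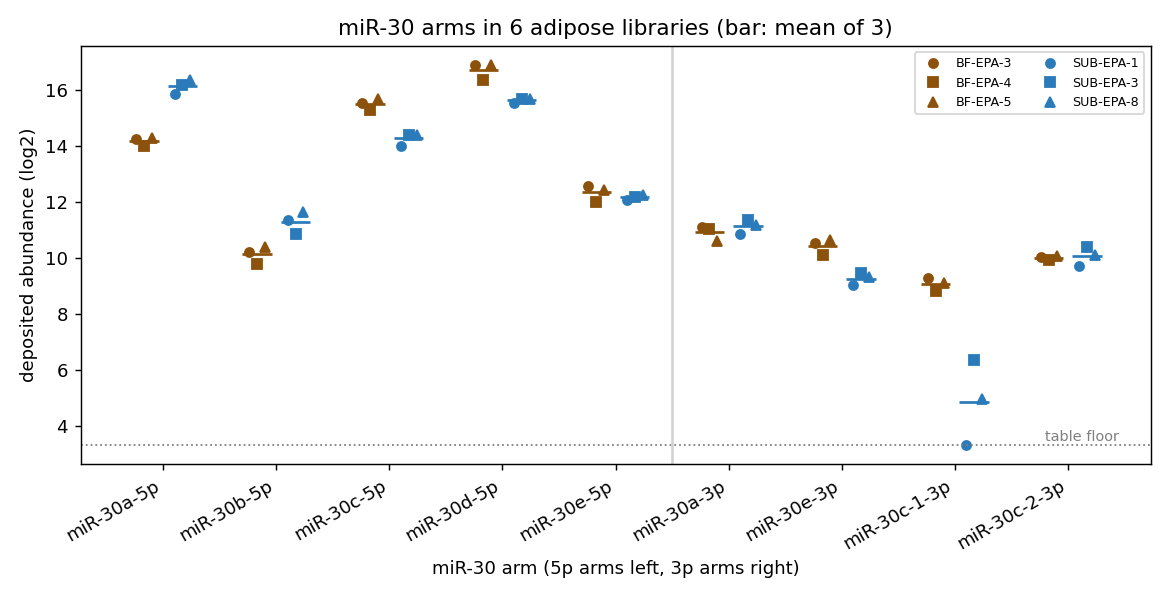
Deposited log2 abundance of the 9 miR-30 arms, with 5p arms on the left and 3p arms on the right. Each point is a library, brown for BF-EPA and blue for SUB-EPA, bars are means of 3 libraries, and the dotted line is the table floor at 3.32. MiR-30d-5p and miR-30c-5p are higher in every BF-EPA library, and miR-30a-5p and miR-30b-5p are higher in every SUB-EPA library.

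Among the 5p arms, miR-30d-5p, whose precursor shares a locus with miR-30b, stood at 16.90, 16.38 and 16.90 in BF-EPA-3, 4 and 5, against 15.56, 15.70 and 15.70 in SUB-EPA-1, 3 and 8. It ranked 5, 8 and 5 among all rows in the BF-EPA libraries and 13, 12 and 12 in the SUB-EPA libraries. All BF-EPA values lay above all SUB-EPA values, and the lowest BF-EPA value came from BF-EPA-4, as it did for every other 5p arm. MiR-30d-5p was 2.11-fold higher in BF-EPA (difference of 1.08 ± 0.17 SE in log2, 3 libraries per tissue, adjusted p in limma = 0.0018).

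MiR-30c-5p, reported in mouse to promote thermogenic fat, stood at 15.56, 15.30 and 15.70 in BF-EPA-3, 4 and 5, against 14.02, 14.41 and 14.41 in SUB-EPA-1, 3 and 8. The groups did not overlap. It was 2.36-fold higher in BF-EPA (difference of 1.24 ± 0.17 SE in log2, adjusted p in limma = 0.0010).

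MiR-30a-5p, which in human adipose-derived stem cells has been linked to adipogenesis through RUNX2, moved the other way. It stood at 14.24, 14.02 and 14.31 in BF-EPA-3, 4 and 5, against 15.87, 16.18 and 16.38 in SUB-EPA-1, 3 and 8. Its ranks were 23, 27 and 22 in BF-EPA and 11, 9 and 8 in SUB-EPA, and every SUB-EPA value was above every BF-EPA value. MiR-30a-5p was 3.87-fold lower in BF-EPA (difference of -1.95 ± 0.17 SE in log2, adjusted p in limma = 0.00012), the largest change among the 5p arms as deposited. The log2 difference was -1.15 once the trend of each library with GC content was removed (adjusted p = 0.0021). That trend ran at 0.17 to 0.26 log2 units per 10 percentage points of GC in BF-EPA and -1.22 to -0.91 in SUB-EPA. The same removal gave larger differences for miR-30c-5p (2.30) and miR-30e-3p (1.98), which kept their calls. Among the 5p arms the change of miR-30a-5p was then smaller than that of miR-30c-5p.

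MiR-30b-5p, reported with miR-30c to repress Nrip1 in mouse fat cells, was the least abundant 5p arm in both tissues. It stood at 10.23, 9.80 and 10.38 in BF-EPA-3, 4 and 5, against 11.38, 10.87 and 11.65 in SUB-EPA-1, 3 and 8. The groups did not overlap. It was 2.24-fold lower in BF-EPA (difference of -1.16 ± 0.27 SE in log2, adjusted p in limma = 0.0081). After median-of-ratios scaling, which moved the median of all tested miRNAs to -0.04, the difference was -0.74 with a limma adjusted p of 0.054, so that call was lost.

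MiR-30e-5p, which differs from miR-30a-5p by 1 base, stood at 12.59, 12.004 and 12.45 in BF-EPA-3, 4 and 5, against 12.07, 12.20 and 12.25 in SUB-EPA-1, 3 and 8. The SUB-EPA values lay inside the range of the BF-EPA values. The log2 difference was 0.17 ± 0.19 SE (95% interval -0.28 to 0.63, limma adjusted p = 0.43). It passed the test in favour of BF-EPA at 0.59 after median-of-ratios scaling (adjusted p = 0.043) and at 1.57 with the GC trend removed (adjusted p = 0.00084).

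The order of the 5p arms therefore depended on the tissue. In BF-EPA it was miR-30d-5p, miR-30c-5p, miR-30a-5p, miR-30e-5p and miR-30b-5p, from high to low, and no neighbours in that order overlapped over the 3 libraries. In SUB-EPA it was miR-30a-5p, miR-30d-5p, miR-30c-5p, miR-30e-5p and miR-30b-5p, again with no overlap between neighbours. Levels of different arms are compared here as deposited, without a correction for how well each sequence is captured in a library.

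On the linear scale the 5 arms summed to 197500, 147011 and 202890 in BF-EPA-3, 4 and 5, against 131601, 155445 and 168084 in SUB-EPA-1, 3 and 8. BF-EPA-4 lay within the SUB-EPA range and the other two BF-EPA libraries above it. The means were 182467 ± 30824 in BF-EPA and 151710 ± 18526 in SUB-EPA (SD, n = 3 each), which is 7.55% ± 1.28 and 6.28% ± 0.77 of the linear total of the table, and their ratio was 1.20. No test is given for the sum, because its members were chosen with results known. The log2 ratio of the mean sums was 0.27 as deposited, 0.17 without SUB-EPA-1, 0.18 without BF-EPA-5, 0.40 without BF-EPA-4 and 0.69 after median-of-ratios scaling.

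The make-up of that sum differed between the tissues. MiR-30d-5p made up 60.1% ± 2.1 of the sum in BF-EPA and 34.1% ± 2.5 in SUB-EPA, and miR-30c-5p 26.0% ± 1.5 in BF-EPA and 13.2% ± 0.72 in SUB-EPA (SD, n = 3 each). MiR-30a-5p made up 10.4% ± 0.80 in BF-EPA and 47.9% ± 2.6 in SUB-EPA (SD, n = 3 each). MiR-30e-5p held 2.89% ± 0.20 in BF-EPA and 3.06% ± 0.18 in SUB-EPA, and miR-30b-5p 0.625% ± 0.029 in BF-EPA and 1.72% ± 0.45 in SUB-EPA (SD, n = 3 each). For miR-30d-5p, miR-30c-5p, miR-30a-5p and miR-30b-5p no library of a tissue overlapped the other tissue in its share.

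**Figure D2:**
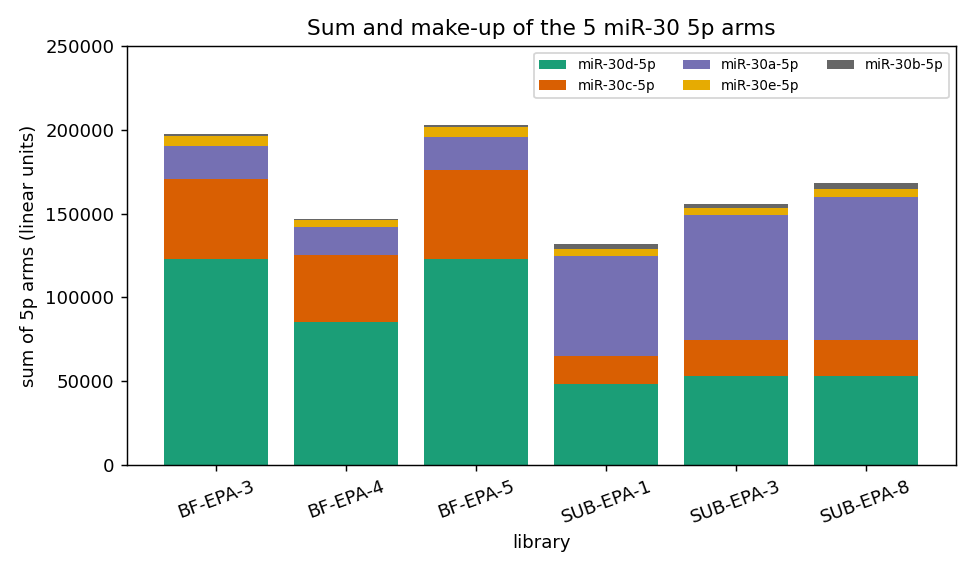
Linear sum of the 5 miR-30 5p arms in each library, stacked by arm, with BF-EPA libraries on the left and SUB-EPA libraries on the right. The column heights run from 147011 to 202890 in BF-EPA and from 131601 to 168084 in SUB-EPA, while miR-30a-5p takes 9.81% to 11.3% of the column in BF-EPA and 45.5% to 50.7% in SUB-EPA.

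The ratios between 5p arms of paired hairpins lay apart between the tissues. Of these ratios, only that on chromosome 15 compares arms of a single locus. A factor that multiplies a whole library cancels in a ratio within it, and 3 such ratios were compared. The deposited values are largely set by rank, which is no such factor. The ratios, and the shares and sums above, therefore still carry that normalization. The GC trend was not removed from these ratios or from the shares and sums, and miR-30d-5p and miR-30b-5p had no GC value. The part of that trend in them was not tested. The log2 ratio of miR-30a-5p to miR-30c-5p was -1.31, -1.28 and -1.39 in BF-EPA-3, 4 and 5, against 1.85, 1.77 and 1.97 in SUB-EPA-1, 3 and 8, which reverses which of the pair is the more abundant. The difference was -3.19, with means of -1.33 ± 0.06 in BF-EPA and 1.86 ± 0.10 in SUB-EPA (SD, n = 3 each). At the chromosome 15 locus the log2 ratio of miR-30d-5p to miR-30b-5p was 6.67, 6.57 and 6.52 in BF-EPA-3, 4 and 5, against 4.17, 4.83 and 4.04 in SUB-EPA-1, 3 and 8. The difference was 2.24, since miR-30d-5p was higher and miR-30b-5p lower in BF-EPA although their hairpins lie 3.7 kb apart. The log2 ratio of miR-30e-5p to miR-30c-5p was -2.97, -3.29 and -3.24 in BF-EPA-3, 4 and 5, against -1.95, -2.21 and -2.15 in SUB-EPA-1, 3 and 8, a difference of -1.06. For each of the 3 ratios the tissues did not overlap, and the exact two-sided permutation p was 0.1 (adjusted over the 3 ratios, also 0.1), the smallest that 3 against 3 libraries can give. Since miR-30c-5p comes from both chromosomes 1 and 4, its ratios do not isolate a locus.

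**Figure D3:**
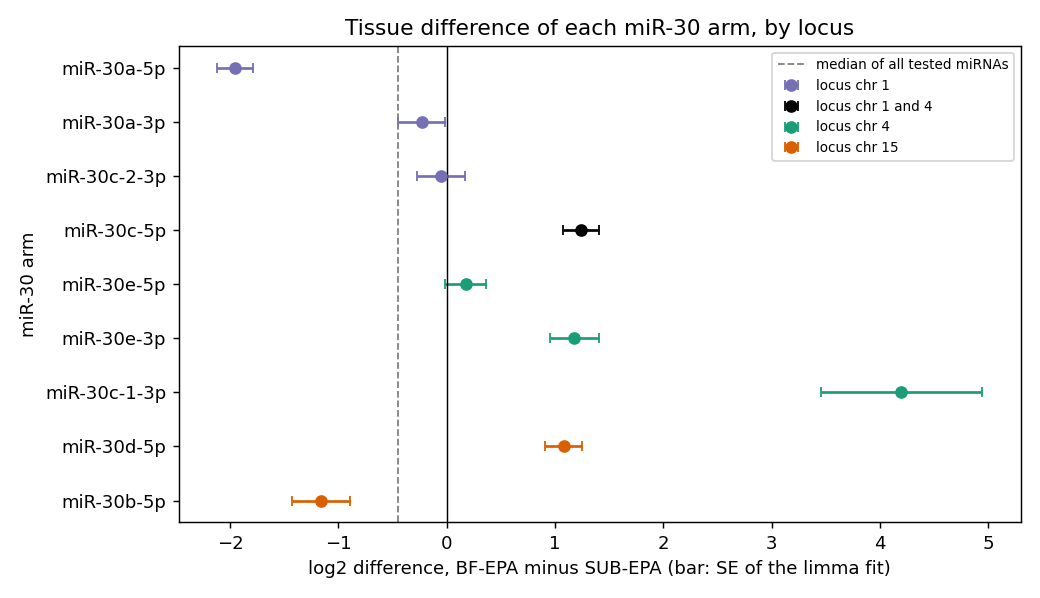
Log2 difference between BF-EPA and SUB-EPA for each miR-30 arm, coloured by genomic locus, with the SE of the limma fit as bars and the median of all 269 tested miRNAs (-0.45) as a dashed line. Points right of 0 are higher in BF-EPA. The chromosome 15 arms miR-30d-5p and miR-30b-5p lie on opposite sides of 0, at 1.08 and -1.16.

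Among the 3p arms, both that come from the Nfyc locus on chromosome 4 were higher in BF-EPA, and neither 3p arm of the chromosome 1 locus passed the test. MiR-30c-1-3p, the 3p arm of Mir30c-1, stood at 9.27, 8.82 and 9.12 in BF-EPA-3, 4 and 5, against 3.32 (the floor), 6.35 and 4.95 in SUB-EPA-1, 3 and 8. The groups did not overlap, and the SUB-EPA values, of which that of SUB-EPA-1 was at the floor, were widely spread. Its log2 difference was 4.20 ± 0.75 SE (adjusted p in limma = 0.0028). It was 3.42 without SUB-EPA-1, 4.94 without SUB-EPA-3, 5.06 without both BF-EPA-4 and SUB-EPA-3, 2.94 with 40 added to the linear values and 5.50 with the floor subtracted.

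MiR-30e-3p, the 3p arm of Mir30e, stood at 10.56, 10.13 and 10.65 in BF-EPA-3, 4 and 5, against 9.03, 9.45 and 9.33 in SUB-EPA-1, 3 and 8. No library overlapped the other tissue. It was 2.26-fold higher in BF-EPA (difference of 1.18 ± 0.22 SE in log2, adjusted p in limma = 0.0038).

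On chromosome 1, miR-30a-3p stood at 11.10, 11.05 and 10.61 in BF-EPA-3, 4 and 5, against 10.87, 11.38 and 11.20 in SUB-EPA-1, 3 and 8. The groups overlapped (log2 difference -0.23, 95% interval -0.76 to 0.30, limma adjusted p = 0.37), and the direction turned after median-of-ratios scaling, at 0.19. MiR-30c-2-3p stood at 10.05, 9.93 and 10.08 in BF-EPA-3, 4 and 5, against 9.71, 10.38 and 10.13 in SUB-EPA-1, 3 and 8. These groups also overlapped (log2 difference -0.06, 95% interval -0.59 to 0.48, limma adjusted p = 0.83). The 3p arms of the miR-30c hairpins, which share a seed, thus had their log2 differences at 4.20 for miR-30c-1-3p and -0.06 for miR-30c-2-3p (95% interval 2.39 to 6.00 for miR-30c-1-3p), and the gap between these differences was not tested.

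Among the 3p arms the order in BF-EPA was miR-30a-3p, miR-30e-3p, miR-30c-2-3p and miR-30c-1-3p, where the first 2 overlapped. In SUB-EPA miR-30c-2-3p stood above miR-30e-3p without overlap, between miR-30a-3p and miR-30e-3p. The 4 arms summed to 5377, 4665 and 4807 linear units in BF-EPA-3, 4 and 5, against 3243, 4785 and 4137 in SUB-EPA-1, 3 and 8, a small amount beside the 5p arms in every library.

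The balance between the arms of a hairpin also differed between tissues. The log2 ratio of the 5p to the 3p arm was compared with limma over 65 hairpins with both arms tested, of which 52.3% passed at an adjusted p of 0.05, and all 4 miR-30 ratios passed. That share of all hairpins is high, and the 4 ratios are not independent, as miR-30c-5p enters 2 of them. For miR-30a the log2 ratio was 3.15, 2.97 and 3.70 in BF-EPA-3, 4 and 5, against 5.00, 4.80 and 5.18 in SUB-EPA-1, 3 and 8. The 5p arm of miR-30a was thus less dominant in BF-EPA (-1.72 ± 0.33 SE in log2, adjusted p in limma = 0.0060, and -1.13 with the GC trend removed). For miR-30e the log2 ratio was 2.03, 1.88 and 1.80 in BF-EPA-3, 4 and 5, against 3.04, 2.75 and 2.93 in SUB-EPA-1, 3 and 8. The log2 ratio differed by -1.003 ± 0.27 SE (adjusted p in limma = 0.020). That call was lost without BF-EPA-5 (adjusted p = 0.060), without SUB-EPA-8 (0.075), without both libraries numbered 3 (0.051), without both libraries highest in miR-133a-3p (0.068) and with the GC trend removed (-0.41, adjusted p = 0.22).

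The 3p arms of miR-30c gave opposite pictures against the same 5p arm. The log2 ratio of miR-30c-5p to miR-30c-2-3p was 5.51, 5.37 and 5.62 in BF-EPA-3, 4 and 5, against 4.30, 4.02 and 4.28 in SUB-EPA-1, 3 and 8 (difference 1.30 ± 0.29 SE, limma adjusted p = 0.0088, and 2.15 with the GC trend removed). The log2 ratio of miR-30c-5p to miR-30c-1-3p was 6.28, 6.48 and 6.57 in BF-EPA-3, 4 and 5, against 10.69, 8.06 and 9.46 in SUB-EPA-1, 3 and 8 (difference -2.96 ± 0.66 SE, limma adjusted p = 0.0088). In the ratio to miR-30c-1-3p, SUB-EPA-1 has its 3p arm at the floor. That difference was -2.31 without SUB-EPA-1 and -3.63 without SUB-EPA-3, and its call was lost with the floor subtracted (adjusted p = 0.059) or with the GC trend removed (-1.52, adjusted p = 0.060).

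**Figure D4:**
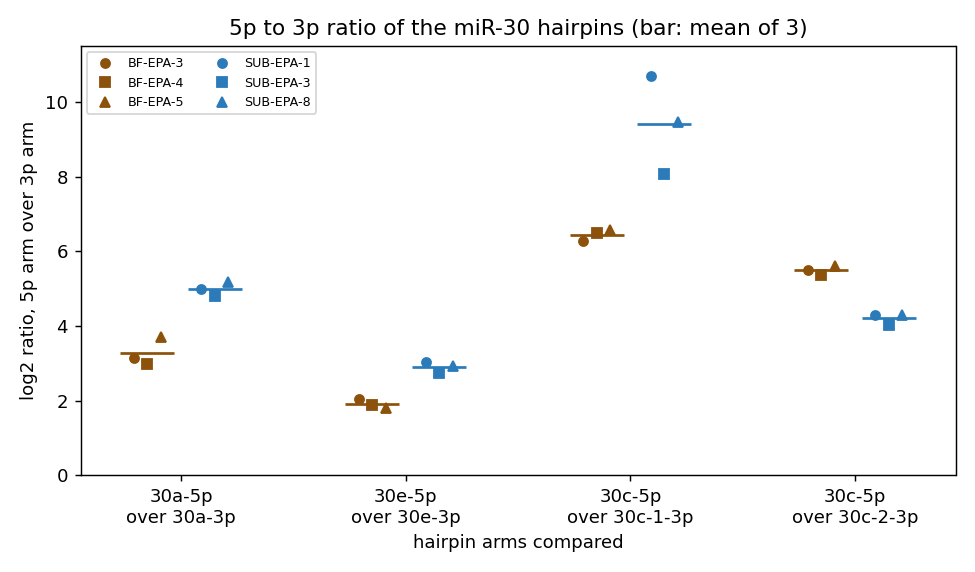
Log2 ratio of the 5p to the 3p arm within each library for the miR-30a and miR-30e hairpins and for miR-30c-5p against each of its 3p arms. Points are libraries (brown BF-EPA, blue SUB-EPA) and bars are means of 3. BF-EPA points lie below SUB-EPA points in the first 3 comparisons and above them for miR-30c-5p over miR-30c-2-3p, at 5.37 to 5.62 against 4.02 to 4.30.

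Further rows close to the family were at or near the floor. MiR-384-5p, which carries the seed of the miR-30 5p arms, was listed at 3.32 in all 6 libraries, as were miR-30b-3p and miR-30f, which is annotated on the strand opposite Mir30e. MiR-30d-3p was at the floor in all but SUB-EPA-3, where it stood at 5.00. The abundant miR-30d-5p and the scarce miR-30b-5p therefore have no 3p arm with which to compare the output of their hairpins.

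Other miRNAs reported to promote brown fat give the family's setting. Of 15 listed, 13 were tested, with 8 higher and 4 lower in BF-EPA and a median log2 difference of 2.15. Over all 269 tested miRNAs 33.5% were higher and 35.7% lower. The largest differences on that list were those of miR-196a-5p, listed at the floor in all BF-EPA libraries and at 10.70 to 10.93 in SUB-EPA, miR-129-5p, at 9.85 to 10.74 in BF-EPA and listed at the floor in SUB-EPA, and miR-455-3p (5.83 ± 0.77 SE, limma adjusted p = 0.00092). The other 3 that were lower in BF-EPA were miR-193a-3p (-3.34), miR-26b-5p (-3.25) and miR-26a-5p (-2.39), named after their values were seen. MiR-193b-3p, miR-365-3p, miR-455-3p and miR-378a-3p, members of the same list, were higher in BF-EPA by 1.22 to 5.83 in log2. These were meant to check the tissue label but were picked with earlier results known, so they are no independent check of it. Of 13 listed miRNAs reported to restrain brown fat, 11 were tested, with 1 higher and 5 lower and a median log2 difference of -0.92. Those with the largest differences were miR-199a-3p (-3.58 ± 0.21 SE), let-7i-5p (-2.11 ± 0.32 SE) and miR-93-5p (-1.64 ± 0.20 SE), all past the limma threshold. Of the miR-30 arms with a reported thermogenic role, miR-30c-5p thus moved with the majority of the promoting list and miR-30b-5p with its minority. The call of miR-30b-5p was lost after median-of-ratios scaling (limma adjusted p = 0.054).

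The miRNA outside the family with the most similar pattern over the 6 libraries was sought for each 5p arm by Pearson's r of the log2 values, as a description. The libraries fall into 2 tissues, so r includes the difference between tissues. It was miR-335-5p for miR-30a-5p (r = 0.995), miR-431-5p for miR-30c-5p (0.994), miR-451a for miR-30b-5p (0.986), miR-150-3p for miR-30d-5p (0.995) and miR-467d-5p for miR-30e-5p (0.915). MiR-335-5p was at the floor in every BF-EPA library, and miR-150-3p and miR-467d-5p were at the floor in every SUB-EPA library. MiR-451a, an erythrocyte miRNA, stood at 8.84, 8.19 and 9.18 in BF-EPA-3, 4 and 5, against 10.43, 9.80 and 10.43 in SUB-EPA-1, 3 and 8. MiR-30b-5p, like miR-451a, was lowest in BF-EPA-4 among the BF-EPA libraries and lowest in SUB-EPA-3 among the SUB-EPA libraries. MiR-451a was picked for its similarity to miR-30b-5p over these libraries, so that match is no separate result. Every other 5p arm was also lowest in BF-EPA-4 among the BF-EPA libraries.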

How the data were processed

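Small RNA libraries were sequenced from 3 brown and 3 subcutaneous adipose samples. Per the series' design text, the authors mapped reads to mm10 (also in the submitters' processing notes), normalized counts to total usable reads and added 40. The table the authors deposited holds log2 values for 1251 arms, of which 910 were at the floor in all 6 libraries. The deposited values do not match that description in full: their floor is 10 and not 40 on the linear scale, and equal ranks hold nearly equal values across libraries, a step no source used here names. Differences are therefore relative within a library, depth is unknown and no counting interval is given. No source used here gives the aligner or miRNA annotation.

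Tissues were compared with limma 3.58.1 (R 4.3.3) on the deposited log2 values, using a trend of variance on level and adjusting p by Benjamini-Hochberg. A miRNA was tested if its mean above the floor was at least 24.2 linear units (10 ppm of the mean total), which left 269. Arm ratios were fitted likewise over 65 hairpins. Differences are BF-EPA minus SUB-EPA, and intervals are 95% intervals of the fit. The fit was also run on simulated data, whose outcome is not given here, so no error rate is stated for it. GC content used RefSeq mature sequences, held for 229 tested miRNAs (85.1%). Python 3.11.15 and matplotlib 3.10.9 drew the plots.

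The labels do not say whether libraries came from separate or shared mice, so p-values reflect only how these samples spread. The members and lists were chosen with earlier results of these data known. Named were the 9 members, rows sharing a member's seed, the most similar miRNA of each 5p arm, and up to 3 of each list by size of difference; other marker names serve to describe their lists. MiR-126, miR-142 and miR-486 of the marker lists were matched under the table's older names.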

Additional observations from a re-analysis of the deposited data

How the results depend on the processing

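Of 329 recomputed values, 308 were labelled as unchanged. For differences this meant the same direction and side of the threshold, and for the 5p sum a shift within its spread. Counts of calls were labelled so within a set factor of the main count. With the GC trend removed, 65 higher miRNAs against 90 thus counted as unchanged. The ratios between 5p arms could not change side, because their permutation p cannot fall below 0.1. Median-of-ratios scaling cancels in every ratio within a library, so those values could not change under it. A changed filter or limma setting left each log2 difference as it was and could move only its adjusted p. The 308 therefore include values fixed in advance. Median-of-ratios scaling and removal of the GC trend changed the most. After median-of-ratios scaling the log2 ratio of the 5p sums was 0.69 and 1 member was lower (miR-30a-5p). The differences were then 0.19 for miR-30a-3p, 0.36 for miR-30c-2-3p, -0.74 for miR-30b-5p (call lost) and 0.59 for miR-30e-5p (call gained). That of miR-30a-5p (-1.54) was smaller in size than that of miR-30c-5p (1.66). With the GC trend removed, miR-30b-5p and miR-30d-5p had no value, 1 member was lower, and the differences were 0.15 for miR-30c-2-3p and 1.57 for miR-30e-5p (call gained). The arm-ratio differences of miR-30e (-0.41) and of miR-30c-5p to miR-30c-1-3p (-1.52) then lost their calls, and the ratio to miR-30c-1-3p also lost its call with the floor subtracted (-4.26). The stricter filter, with 156 miRNAs tested, left 58 higher miRNAs and 17 called hairpins, as fewer were tested. Leaving out 1 library gave -1.08 to -0.93 for the miR-30e arm ratio, with the call lost without BF-EPA-5 and without SUB-EPA-8, and -0.24 to 0.10 for miR-30c-2-3p. Without both libraries numbered 3 the differences were -1.15 (call lost) for the miR-30e arm ratio and 0.083 for miR-30c-2-3p. Leaving out BF-EPA-4 and SUB-EPA-3, an alternative chosen after seeing the data, gave -1.07 (call lost) for the miR-30e arm ratio and 0.14 for miR-30c-2-3p. Causes were not tested. No paired analysis was possible because the groups share only the number 3. The depth of each library is unknown, so it sets no stated limit, and values near the floor understate differences.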
